A study of Homo sapiens with 4 samples.

Results

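The ID genes and the BMP signalling genes around them were followed through long culture of the human embryonic stem cell line H9 (WA09). The set was defined by gene name: ID1, ID2, ID3, ID4, BMP2, BMP4, SMAD6, BAMBI, BMPR1A and SMAD1, with every probe annotated to each. Of the 10 named genes, 9 had a probe, 12 probes in all, out of 19951 genes that could be named. No listed probe carried the name of the receptor gene BMPR1A, which was not analysed here. One bead array was hybridised with total RNA from each of 4 passage groups, P1 at passages in the 40s, P2 at passages in the 100s, P3 at passages in the 200s and P4 at passages in the 300s, all of them H9 cells with no treatment named in the labels. Nothing in the labels says whether the groups are successive samples of one culture. With 1 array per group there is no replicate spread to compare with and no p-value, so each difference below describes a pair of arrays.

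Bone morphogenetic proteins (BMPs) are secreted ligands of the TGF-beta family. They bind paired type I and type II receptors, which phosphorylate SMAD1, SMAD5 and SMAD9; these enter the nucleus with SMAD4 and activate target genes. The ID genes are classic direct targets and encode helix-loop-helix proteins without a DNA-binding domain, which hold the E proteins away from DNA and so restrain differentiation. SMAD6 and BAMBI are targets that feed back on the pathway: SMAD6 blocks signalling inside the cell and BAMBI is a pseudoreceptor in the membrane. In human embryonic stem cells, added BMP4 is known to drive differentiation toward extraembryonic and mesodermal fates. ID1 also lies in chromosome band 20q11.21, where gains recur in cultured human pluripotent cells, between HM13 and the antiapoptotic gene BCL2L1.

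The arrays were close to one another as a whole. Intensities were background-subtracted values with array medians of 17.4 to 17.5, and 12168 genes reached the detection limit of 38.4 intensity units on at least 1 array. Differences are log2 differences of intensities set to that limit where they were lower, so a fold against an array under the limit is a lower bound and is written "at least". Over all detected genes the median log2 difference lay between -0.02 and 0.03 in the 6 pairs of arrays. Of 9 marker genes of undifferentiated cells, all were detected on the 4 arrays and none was 2-fold different in any pair on its brightest probe. A dimmer probe of DNMT3B, which is among them, was 2.66-fold higher in P4 than in P1. Of 12 markers that BMP induces in trophoblast and amnion, only IGFBP3 reached the limit, and CDX2, GATA3, TFAP2A and HAND1 stayed under it on every array. Of 8 mesoderm markers only the receptor gene KDR was detected, while TBXT and MIXL1 were not. Since RNA of many cells was pooled on each array, fewer cells of a type and less RNA per cell cannot be told apart.

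Promoter sequence from RefSeq (build GRCh38.p14, 250 bases before to 50 bases after the transcription start, 300 bases each) was matched for 8 of the 9 genes. The windows of ID1, BAMBI and SMAD6 are shown because these 3 genes (ID1 by its brighter probe) were lowest in P2 and highest in P4, and that of ID2 because it was lower in P4 than in P1, where ID1 was higher. Capitals mark 4 motifs searched on both strands: GGCGCC, the GC-rich site bound by BMP-activated SMADs; CAGAC, the SMAD box; CCAAT; and TATAAA. All windows read 5′ to 3′ along the gene's strand.
ID1, chr20:31605039-31605338, plus strand: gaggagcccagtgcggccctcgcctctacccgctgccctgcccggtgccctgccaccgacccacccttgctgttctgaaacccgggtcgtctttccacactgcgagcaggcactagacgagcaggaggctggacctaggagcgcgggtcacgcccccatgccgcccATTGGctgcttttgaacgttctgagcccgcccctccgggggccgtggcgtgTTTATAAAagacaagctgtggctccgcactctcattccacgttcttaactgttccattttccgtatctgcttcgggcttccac
BAMBI, chr10:28677271-28677570, plus strand: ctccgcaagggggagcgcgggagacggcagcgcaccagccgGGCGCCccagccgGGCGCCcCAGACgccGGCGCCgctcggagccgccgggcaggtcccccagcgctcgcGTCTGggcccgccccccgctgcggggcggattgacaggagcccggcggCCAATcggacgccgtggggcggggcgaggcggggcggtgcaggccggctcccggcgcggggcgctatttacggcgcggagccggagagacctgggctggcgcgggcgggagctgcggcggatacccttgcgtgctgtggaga
SMAD6, chr15:66701986-66702285, plus strand: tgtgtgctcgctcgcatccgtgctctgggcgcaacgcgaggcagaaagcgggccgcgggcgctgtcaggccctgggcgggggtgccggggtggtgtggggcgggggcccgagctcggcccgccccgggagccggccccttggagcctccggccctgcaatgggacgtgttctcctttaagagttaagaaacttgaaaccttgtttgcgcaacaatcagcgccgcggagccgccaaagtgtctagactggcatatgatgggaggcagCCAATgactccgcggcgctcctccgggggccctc
ID2, chr2:8681806-8682105, plus strand: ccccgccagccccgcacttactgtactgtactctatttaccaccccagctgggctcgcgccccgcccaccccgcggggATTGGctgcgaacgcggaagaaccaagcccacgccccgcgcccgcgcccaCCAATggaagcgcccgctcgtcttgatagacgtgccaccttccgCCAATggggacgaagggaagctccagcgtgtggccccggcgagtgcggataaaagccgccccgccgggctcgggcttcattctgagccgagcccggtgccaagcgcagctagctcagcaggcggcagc
The BAMBI window held 3 matches of GGCGCC and 2 of CAGAC. The windows of ID1, SMAD6 and ID2 held neither. ID1 had 1 CCAAT match, on the reverse strand, and 2 overlapping TATAAA matches, 1 on each strand, while ID2 had 3 CCAAT matches and SMAD6 had 1, which lies after the transcription start. Over 35116 promoter windows, 19.2% held GGCGCC, 45.3% CAGAC, 34.6% CCAAT and 11.5% TATAAA. A match describes these letters only, and BMP response elements farther from the start were not searched.

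ID1 was the ID gene with the widest spread between arrays. Its brighter probe (ILMN_1664861) read 1927, 1446, 1977 and 3690 from P1 to P4. P1 and P3 were nearly equal, P2 was the lowest and P4 stood alone at the top. The log2 difference of P4 was 0.94 from P1 (1.91-fold), 1.35 from P2 (2.55-fold) and 0.90 from P3 (1.87-fold). In P4 against P3, 1.66% of the detected genes had a greater positive difference than ID1, and in P4 against P2 0.995%. From P1 to P3, ID1 differed by 0.04, close to the median of all genes, so on this probe the difference between the ends of the series lay between P3 and P4.

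A dimmer ID1 probe (ILMN_1665832) is annotated to the same transcript record, with the place of either probe on it not known here, and gave a different start. It read 40.8 in P1, just over the detection limit, then 72.7 in P2, 85.4 in P3 and 206.6 in P4. P1 was the lowest array on this probe, where P2 was the lowest on the brighter one, and P4 was again the highest. Its log2 difference in P4 was 1.51 from P2 and 1.28 from P3, near those of the brighter probe, but 2.34 from P1. The gap between the probes was therefore in P1: in P2 against P1 they pointed opposite ways, at 0.83 and -0.41. Of the other genes with at least 2 probes detected on all 4 arrays, 0.311% had as wide a gap between their 2 brightest probes in P4 against P1, and the median gap over 2570 genes was 0.20. Among the 523 genes whose dimmer probe came, like that of ID1, within 2 times the limit on some array, 4 had as wide a gap (0.766%) and the median was 0.31. The direction of ID1 from P1 to P2 thus depends on the probe, while its higher level in P4 than in P2 and P3 was read by both.

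**Figure D1:**
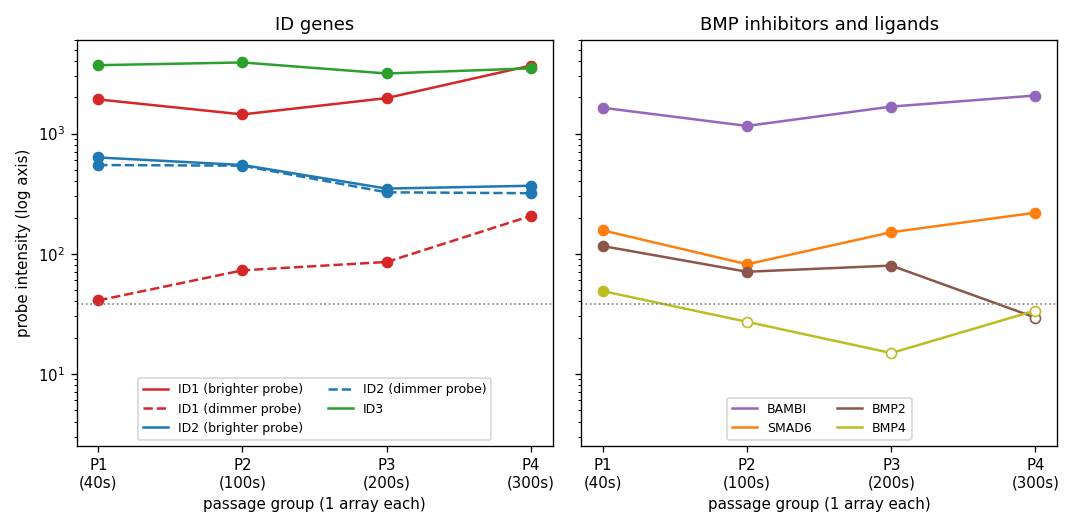
Probe intensity (log axis) in the 4 passage groups, 1 array each, for the probes of the 7 genes detected on at least 1 array; the dotted line is the detection limit of 38.4 and open circles are values under it. Both ID1 probes are highest in P4, both ID2 probes are lower in P3 and P4 than in P1 and P2, and BMP2 is under the limit in P4.

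The other ID genes did not follow ID1. ID2, which like ID1 sequesters E proteins, read 633, 548, 349 and 368 from P1 to P4 on its brighter probe. P3 and P4 lay well below P1 and P2, with log2 differences from P1 of -0.86 in P3 and -0.78 in P4 (1.82-fold and 1.72-fold lower). The dimmer ID2 probe read 548, 541, 325 and 319 in the same order and gave -0.75 and -0.78, so for this gene both probes put the difference between P2 and P3. In P3 against P1, 2.41% of the detected genes had a lower value than ID2.

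ID3, another direct BMP target, varied little. It read 3715, 3916, 3169 and 3496 from P1 to P4, a range of 0.31 log2 units between the lowest and highest array. In P4 against P1 its log2 difference was -0.09. ID4, known from neural development, read 36.3, 1.45, 2.51 and 15.4 from P1 to P4, under the limit on every array, so it has no measured difference.

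The feedback inhibitors were the genes of the set that resembled ID1's brighter probe. SMAD6 read 156, 81.7, 151 and 220 from P1 to P4. Its P2 value was the lowest, and P4 was 2.69-fold above it (log2 difference 1.43), with 0.859% of detected genes further up. P4 was 1.40-fold above P1 (0.49) and P3 level with P1 (-0.05). BAMBI read 1642, 1159, 1680 and 2077 from P1 to P4, the same order of arrays as ID1's brighter probe. Its differences were smaller: P4 was 1.79-fold above P2 (0.84) and 1.26-fold above P1 (0.34). SMAD6 and BAMBI each rested on a lone probe.

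Of the 5 genes of the set detected on all 4 arrays, 3 (ID1 by its brighter probe, SMAD6 and BAMBI) were lowest in P2 and highest in P4. That order was picked out after the values were seen. It held for 7.02% of the 10642 genes detected on all arrays, and for 6 of 33 genes of the wider BMP lists described below, the others being the type I receptor gene ACVR1, the co-receptor gene RGMA and the antagonist gene NBL1. With 4 arrays, the genes that share an order share the arrays too, and the low values in P2 come from 1 array.

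The ligands of the set were dim. BMP2 read 116, 70.7, 79.6 and 29.4 from P1 to P4, where it was under the limit. The first 3 arrays were above the limit and P4 was not, which puts P4 at least 3.01-fold below P1 and at least 2.07-fold below P3. BMP4, a ligand often added to differentiate human embryonic stem cells, read 48.8 in P1 and was under the limit afterwards, at 27.1 in P2, 14.9 in P3 and 33.6 in P4. That places each later array at least 1.27-fold below P1, a bound set by a P1 value close to the limit. The signal transducer gene SMAD1 was under the limit on all arrays with both of its probes, the brighter of which read 13.6, 28.0, 18.2 and 14.1 from P1 to P4.

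Counted by a rule of at least 2-fold on the brightest probe of each gene, few genes of the set passed in any pair. ID1's dimmer probe passed in P3 against P1 (log2 difference 1.06), P4 against P1 (2.34), P4 against P2 (1.51) and P4 against P3 (1.28). In P4 against P1, 1 of 7 detected members passed, BMP2, lower in P4, beside 3.05% of all detected genes in either direction and 1.23% in that direction. In P4 against P2, 2 of 6 passed, ID1 and SMAD6, both higher in P4, against a background of 3.13% in either direction and 2.34% higher. In P4 against P3, 1 of 6 passed, again BMP2, against 2.11% in either direction and 0.764% lower. On the brightest probes none passed in P2 against P1 (background 4.37%), in P3 against P1 (3.55%) or in P3 against P2 (3.14%). Comparisons that include the same array are not independent of each other.

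The wider pathway was read from lists of ligands, receptors, SMADs, inhibitors, antagonists, targets and E proteins, 75 genes of which 71 had a probe and 42 were detected. In P4 against P1, 1 of 41 detected genes was at least 2-fold different on its brightest probe, BMP2 itself, beside 3.05% of all detected genes. Of the 35 above the limit on both arrays, 18 lay above 0 and 17 below. In P4 against P2, 6 of 41 were at least 2-fold different, 5 higher and 1 lower, beside 3.13% of all detected genes in either direction and 2.34% higher. Besides ID1 and SMAD6, the higher genes were BMP6, BMP7 and NBL1, and the lower was FST.

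Among the ligands, 4 were above the limit in both P1 and P2, namely BMP2, BMP6, BMP7 and BMP8B. All 4 lay below 0 in P2 against P1, as did 46.6% of all genes above the limit on both arrays, and 2 were at least 2-fold lower, beside 2.19% of all detected genes. BMP6 read 136, 44.6, 107 and 96.2 from P1 to P4, so that only P2 stood low. BMP7 read 347, 129, 192 and 312 from P1 to P4, again lowest in P2, with P4 near P1. P2 was 3.05-fold below P1 for BMP6 and 2.70-fold for BMP7. BMP8B, a further ligand gene, read 1585 in P1 and 1315 in P4 and its arrays stayed within 0.27 log2 units.

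No detected receptor, co-receptor or transducing SMAD was 2-fold different in any pair on its brightest probe. The log2 differences of the 7 detected receptor and co-receptor genes ran from -0.41 to 0.32 in P4 against P1 around a median of 0.14. RGMA, a co-receptor that presents BMPs to their receptors, read 2375, 2208, 2315 and 2625 from P1 to P4. SMAD5 read 2405, 2399, 2729 and 2396, and SMAD4, the partner common to BMP and nodal signals, 2326, 2259, 2179 and 2329. SMAD9, a receptor-activated SMAD that is also a BMP target, read 60.7, 98.3, 110 and 75.8, highest in P3, where ID1's brighter probe was near its P1 value.

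Of the 8 inhibitors in the cell or its membrane that were above the limit in both P1 and P4, 6 lay above 0 in P4 against P1, around a median of 0.24, beside 53.6% above 0 among all such genes. SMAD7, which inhibits both BMP and nodal signals, read 81.0, 98.2, 147 and 150 from P1 to P4, so that, unlike SMAD6, it was not lowest in P2 and its P3 and P4 values were nearly equal. Of the secreted antagonists above the limit on both arrays, 2 lay above and 4 below 0 in that pair. FST, the activin and BMP binder follistatin, read 799, 1642, 463 and 772 from P1 to P4. P2 was 2.06-fold above P1 and 3.54-fold above P3, the reverse of the P2 values of BMP6, BMP7 and SMAD6. NBL1, a secreted BMP antagonist, read 187, 95.9, 109 and 232, with P2 and P3 low and P4 2.42-fold above P2. FSTL1, a follistatin-like glycoprotein, stayed within 0.22 log2 units.

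Of the targets, 9 were above the limit in both P1 and P4, and in P4 against P1 6 of them lay above 0 and 3 below, around a median of 0.32; of all genes above the limit on both arrays, 53.6% lay above 0. Without ID1 the median of the other 8 was 0.18, beside 0.03 for all genes above the limit on both arrays. RUNX2, a skeletal transcription factor, was above the limit in P4 alone (42.0) and is left out of these counts. No target was at least 2-fold different in that pair on its brightest probe, though ID1's dimmer probe was (log2 difference 2.34). HEY1, a Notch and BMP target, read 91.5, 69.0, 199 and 94.0 from P1 to P4, high only in P3. MSX1, a homeobox target, read 80.0, 91.6, 53.4 and 60.6, lower in P3 and P4 as ID2 was. The 8 undetected targets were ID4 and the BMP-induced genes MSX2, DLX3, DLX5, GATA2, GATA3, TBX3 and ATOH8, each under the limit on every array. The E protein genes, whose products bind ID proteins, had log2 differences of -0.19 (TCF3), -0.33 (TCF4) and 0.03 (TCF12) in P4 against P1.

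**Figure D2:**
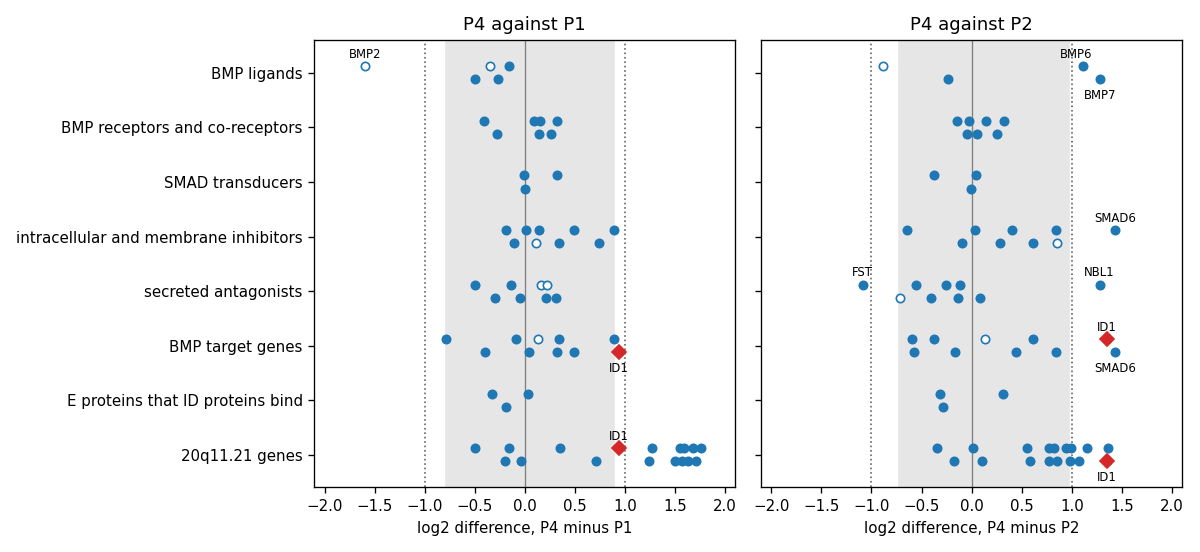
Log2 difference of each detected gene of the BMP lists and of the 20q11.21 list in P4 against P1 (left) and P4 against P2 (right); open circles are bounds, red diamonds are ID1 (brighter probe), dotted lines mark 2-fold and the grey band holds the central 95% of all detected genes. Most pathway genes lie within the band, BMP2 lies far below it on the left, and ID1 stands on the left between most pathway genes and most 20q11.21 genes.

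ID1 was also compared with the genes of its own band. The list of 20q11.21 had 16 detected genes besides ID1, whose median log2 difference against P1 was 0.55 for P2, 1.11 for P3 and 1.38 for P4. ID1's brighter probe gave -0.41, 0.04 and 0.94 in the same comparisons and its dimmer probe 0.83, 1.06 and 2.34. In P4 against P3 the median of the 16 was 0.10, none was 2-fold different and the highest was 0.61, below both ID1 probes at 0.90 and 1.28. BCL2L1 read 2468, 2955, 4374 and 5827 from P1 to P4 on its brighter probe, and the spindle factor gene TPX2 1274, 1948, 4137 and 4082. The dimmer BCL2L1 probe read 78.8, 132, 187 and 245, with log2 differences against P1 of 0.75, 1.25 and 1.64. On the brighter BCL2L1 probe these were 0.26, 0.83 and 1.24. HM13, the signal peptide peptidase next to ID1, read 181, 347, 634 and 591 on its brightest probe, a log2 difference of 1.71 in P4 against P1, but its 2 dimmer detected probes gave 0.57 and -0.28. COX4I2, on the other side of ID1, was under the limit on all arrays. In P3 against P1 the log2 difference was 0.83 for BCL2L1 on its brighter probe, 1.25 on its dimmer one and 1.70 for TPX2. ID1 gave 0.04 on its brighter probe and 1.06 on its dimmer one. DNMT3B, a de novo DNA methyltransferase farther along the band, read 7597, 6601, 6707 and 9680 on its brightest probe, lowest in P2 and highest in P4. A dimmer DNMT3B probe read 292, 363, 719 and 779, lowest in P1, and another was lowest in P3, so its order also depends on the probe.

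Likeness of pattern was measured as the root mean square distance between log2 levels centred over the 4 arrays. It was taken among 10641 genes detected on all of them, each read from its brightest probe. The 5 genes nearest to ID1's brighter probe were GLIPR1L1 (distance 0.07), IL20RB (0.08), SCML1 (0.08), RIPOR1 (0.10) and MBTPS2 (0.12), none of them on chromosome 20. SMAD6 came at rank 52 (0.22), BAMBI at rank 77 (0.25), DNMT3B at rank 194 (0.30) and BCL2L1 at rank 259 (0.31), while HM13 was at rank 9530, TPX2 at rank 8191, ID3 at rank 6498 and ID2 at rank 10275. The dimmer probe gave another picture. Its nearest gene was TSPY26P, a pseudogene of 20q11.21, at 0.26, followed by ESPNL (0.28), ISG15 (0.29), PCDHB3 (0.30) and KCNF1 (0.31). BCL2L1 stood at rank 17, TPX2 at rank 38 and HM13 at rank 53, ahead of DNMT3B at rank 1042, BAMBI at rank 1219 and SMAD6 at rank 1577. By distance BCL2L1 was nearer to ID1's brighter probe (0.31) than to its dimmer one (0.41), as was DNMT3B (0.30 against 0.71). TPX2 (0.60 against 0.47) and HM13 (0.67 against 0.49) were nearer to ID1's dimmer probe. No distance was taken for the dimmer probes of BCL2L1, DNMT3B and HM13, so these orders hold for their brightest probes only. SMAD6 and BAMBI were nearer to ID1's brighter probe on both measures. These ranks rest on 4 arrays and were added after the values were seen.

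**Figure D3:**
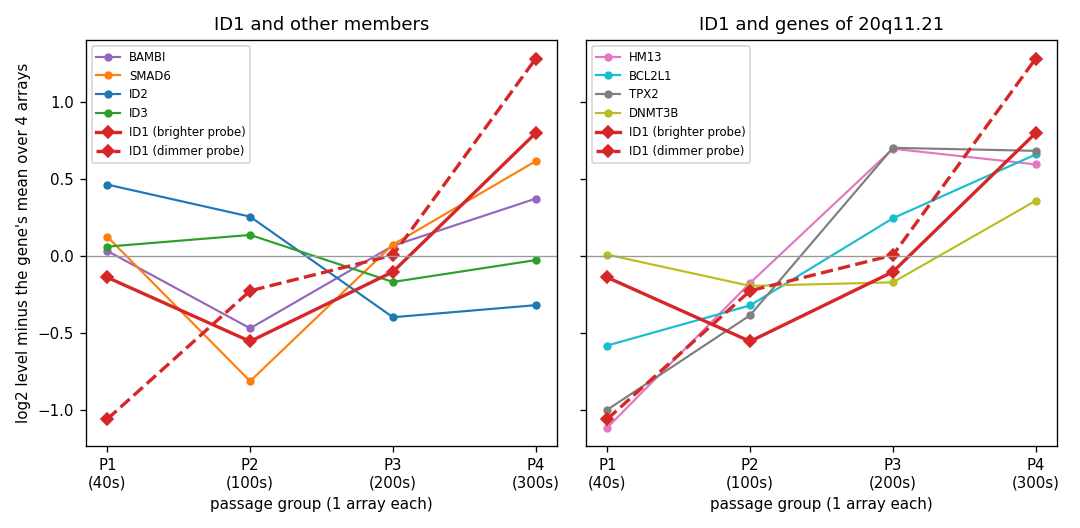
Log2 level of each gene minus its mean over the 4 arrays, with ID1 in red (solid, brighter probe; dashed, dimmer probe), beside other genes of the set (left) and genes of 20q11.21 (right). The brighter ID1 probe dips in P2 as SMAD6 and BAMBI do, and the dimmer probe is lowest in P1 as HM13, TPX2 and BCL2L1 are on their brightest probes.

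Genes listed as markers of other cells varied over the same arrays. Of 8 genes of the fibroblast list 5 were detected, while COL3A1, LUM and DCN were under the limit throughout. The summed intensity of the 5 was 7893, 9805, 10418 and 12081 from P1 to P4. THY1 alone gave 3664, 4058, 5030 and 5796 of it. A rise in this sum does not show that fibroblasts were present. Among the 5, VIM was highest in P2, at 3198, and the others were highest in P4. In the trophoblast and amnion list only IGFBP3 was above the limit, at 125, 51.2, 131 and 104, lowest in P2 like SMAD6 and BMP6. KDR read 143, 108, 164 and 194, also lowest in P2 and highest in P4. Of 6 neural markers 4 were detected on at least 1 array. NES read 2036, 2495, 2905 and 3243, OTX2 1273, 1482, 828 and 902, and DCX 232, 135, 264 and 197. MAP2 passed the limit in P3 alone (80.4), and PAX6 and SOX1 on no array. Whether such cells were present, and their part in the levels of ID1, SMAD6 and BAMBI, was not tested.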

How the data were processed

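Total RNA was extracted with Trizol, cleaned up with DNase I treatment and labelled as biotinylated cRNA, per the labels' protocols. The authors deposited linear probe intensity values for 47323 probes on 4 arrays, 1 per passage group. About 25.2% to 25.4% of the deposited intensity values were below 0, so background had been subtracted, and the arrays had near-equal quantiles; the software used is not stated in the labels. Low values are therefore noisy.

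Arrays were quantile normalized and values under the 60th percentile (38.4) set to it before taking log2 (Python 3.11.15, numpy 2.4.6, pandas 2.3.3). A gene was read from its probe with the highest mean. The platform annotation assigned 30113 probes to 1 symbol and 8 to several, leaving 17202 unlisted; 30074 symbols matched a current RefSeq entry by Entrez identifier. The 2-fold rule was tried on simulated data in which larger changes were planted in bright genes only. That trial does not bear on dim genes such as SMAD6, BMP2 and BMP4. Named genes were all members, list genes at least 2-fold different in a pair, the list member with the highest mean for some roles, ID1's neighbours and the 5 nearest patterns; other list genes named were chosen after their values were seen. Members and lists were chosen with earlier results of these data known. Y-linked and X-inactivation genes were not analysed here. Alternatives were other normalizations, floors, an offset and averaged probes.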

Additional observations from a re-analysis of the deposited data

How the results depend on the processing

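No paired analysis was possible because each group has 1 array. Of 222 log2 differences of single members recomputed under the alternatives, 215 stayed on their side of 2-fold and within 1.5-fold of the main value, and none past 2-fold changed direction. Differences of genes undetected under an alternative are not among the 222. At the 75th percentile these were all of BMP2 and BMP4 and some of SMAD6. Differences undetected in the main setting but detected under an alternative, such as those of ID4 against P1 with the 50th percentile, are also left out of the 222. They do enter the counts of members below. Values as deposited, with or without centring on the median, changed no count of members. With the floor and limit at the 50th percentile (17.4) the members at least 2-fold different numbered 1 in P2 against P1 and 2 in P3 against P1, in place of 0, and 2 in P4 against P1 and 3 in P4 against P2, in place of 1 and 2; the wider pathway had 3 in P4 against P1 in place of 1. ID4 then passes the limit in P1 alone. With the 75th percentile (178) the members numbered 0 in P4 against P1, 1 in P4 against P2 and 0 in P4 against P3, and the pathway 0, since BMP2 is then undetected and SMAD6 stands at the floor in P2. With an offset of 50, P4 against P3 had 0, with BMP2 at -0.71. With the mean of detected probes, ID1 gave 1.64 in P4 against P1, 1.09 in P4 against P3 and 0.21 in P2 against P1 (main -0.41), so that P4 against P1 and P4 against P3 each had 2 members and the pathway 2. Over all genes, 361 were at least 2-fold different in P4 against P1, and 686, 116 and 158 with the lower limit, the higher limit and the offset; in P4 against P2 these were 368, 634, 116 and 194. Values near the limit (BMP4, BMP2, and the dimmer ID1 probe in P1) rest on little signal over background.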
